A study of Mus musculus with 16 samples.

Results

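The carbonic anhydrases described here are 6 genes, Car1, Car2, Car3, Car4, Car8 and Car13, out of the 22180 genes that had a probe set carrying a single symbol on the arrays. They were chosen by their shared family name and by measured values, the mean water differences of Car1 (higher after antibiotics) and Car13 (lower), which were known from earlier results of these data. The water differences of Car1 and Car13 are therefore given with their errors, as descriptions and with no p. Members called for water are counted beside the share of all genes called, and nothing is read from those counts. For each gene the probe set with the highest mean over the 16 arrays was read.

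The arrays measured RNA of myeloid progenitors sorted from the bone marrow of wild-type C57BL/6 mice. For 3 weeks the antibiotic-treated mice drank metronidazole, ampicillin, vancomycin and neomycin at 1 g/L of each, the control mice drank water without them, and both waters held 2% sucrose. All sorted cells were Kit+, CD105- and negative for a lineage panel that included Sca-1. Common myeloid progenitors (CMPs) had intermediate CD16/32 and no CD115 and were measured on 3 antibiotic and 3 control arrays, granulocyte-monocyte progenitors (GMPs) had high CD16/32 and no CD115 (3 antibiotic and 2 control arrays), and committed monocyte progenitors (cMoPs) carried CD115 and Ly6C (3 antibiotic and 2 control arrays).

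Whether the arrays stand for single mice or for pools is not in the labels, so errors and p-values cover the spread between arrays, which may be technical. The number of arrays limits the precision, since an array has no read depth. Array medians lay between 4.04 and 4.17 log2 units, and no array stood apart in its quartiles. Of the genes behind the gates, Fcgr3 and Fcgr2b, which encode CD16/32 receptors, were 3.14 and 2.08 log2 units higher in GMPs than in CMPs. Csf1r, which encodes CD115, was 1.95 higher in cMoPs than in GMPs. Ly6c2, which encodes Ly6C, was 2.41 higher in cMoPs than in CMPs, but cMoPs and GMPs differed by 0.14 and were not called (limma adjusted p = 0.817). Eng encodes CD105, which all cells were sorted to lack, and its RNA read 6.71 in GMPs and 8.33 in CMPs (-1.62, limma adjusted p = 6.26e-06). Against CMPs, Kit differed by -0.48 in GMPs and by -1.10 in cMoPs.

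Carbonic anhydrases are zinc enzymes that convert carbon dioxide and water into bicarbonate and a proton, and back. In the blood they are best known from red cells, whose cytosol is rich in the products of Car1 and Car2 and which use them to carry carbon dioxide from the tissues to the lung. The family members differ in where they sit in the cell and in activity. Car1, Car2, Car3 and Car13 encode cytosolic enzymes, Car4 an enzyme anchored to the outer face of the plasma membrane, and Car8 a related protein that lacks the catalytic activity.

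Car1, one of the main enzymes of the red cell, had its highest signal in CMPs and fell along the progenitors. In CMPs its probe set (17404180) read 12.04, 12.11 and 11.98 log2 units on the antibiotic arrays and 11.88, 12.04 and 11.94 on the control arrays. In GMPs it read 8.82, 8.38 and 8.25 after antibiotics and 6.81 and 6.59 in controls. In cMoPs it read 6.68, 6.37 and 6.29 after antibiotics and 6.05 and 5.45 in controls. The CMP arrays stood apart from all others. The waters overlapped in CMPs and did not overlap in GMPs or cMoPs. From high to low, the 6 group means were 12.04 in antibiotic CMPs, 11.95 in control CMPs, 8.48 in antibiotic GMPs, 6.70 in control GMPs, 6.45 in antibiotic cMoPs and 5.75 in control cMoPs. Of the neighbours in that order, the CMPs of both waters overlapped, as did antibiotic cMoPs and control GMPs.

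Car2, whose product is the fast cytosolic enzyme of red cells, had nearly the same course. In CMPs its probe set (17396162) read 11.37, 11.48 and 11.34 on the antibiotic arrays and 11.40, 11.36 and 11.41 on the control arrays. In GMPs it read 7.37, 7.09 and 7.45 after antibiotics and 6.51 and 7.32 in controls. In cMoPs it read 5.52, 5.25 and 5.54 after antibiotics and 4.90 and 6.27 in controls. Every CMP array lay above every GMP array and every GMP array above every cMoP array, while the waters overlapped in each progenitor. The group means after antibiotics and in controls were 11.40 and 11.39 in CMPs, 7.30 and 6.92 in GMPs, and 5.44 and 5.59 in cMoPs. The SD was 0.189 on antibiotic arrays and 0.573 on control arrays of GMPs, and 0.162 on antibiotic arrays and 0.969 on control arrays of cMoPs, so the control pairs were wide apart. The residual SD of Car2 over all groups was 0.375, higher than that of 93.2% of all genes.

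Between progenitors, averaged over both waters, differences were called at a Benjamini-Hochberg adjusted p under 0.05 in a limma fit over all 22180 genes, as the later progenitor minus the earlier one. Car1 averaged 7.59 in GMPs and 12 in CMPs, a fall of 21.2-fold (log2 difference -4.41 ± 0.131 SE, limma adjusted p = 3.46e-12). Car2 averaged 7.11 in GMPs and 11.39 in CMPs, a fall of 19.5-fold (-4.28 ± 0.199, limma adjusted p = 3.26e-10). Both were among the 10 most negative of all 22180 differences between GMPs and CMPs. They were also the only members called there, 2 of 6, both lower, where 16% of all genes were called and 8.17% were called lower.

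The fall went on in cMoPs. Car1 averaged 6.10 in cMoPs and 7.59 in GMPs (-1.49 ± 0.138, limma adjusted p = 3.79e-06), and Car2 averaged 5.51 and 7.11 in the same order (-1.60 ± 0.21, limma adjusted p = 0.000122). Against CMPs, Car1 was 59.7-fold lower and Car2 59-fold lower in cMoPs, with differences of -5.90 ± 0.131 and -5.88 ± 0.199 (limma adjusted p = 8.35e-14 and 6.06e-12). Within each water, GMPs differed from CMPs in Car1 by -3.56 ± 0.175 after antibiotics and -5.25 ± 0.195 in controls, and cMoPs from GMPs by -2.04 ± 0.175 after antibiotics and -0.95 ± 0.214 in controls. Car2 differed between GMPs and CMPs by -4.09 ± 0.265 after antibiotics and -4.48 ± 0.297 in controls, so the steps differed by 0.38 ± 0.398, and the limma F test of water by progenitor gave no call for Car2 (adjusted p = 0.953).

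By array overlap, every GMP array lay below every CMP array for 2 of the 6 members (Car1 and Car2), beside 11.2% of all genes that did not overlap in either direction. Between cMoPs and GMPs the arrays stood apart for 2 members (Car2 and Car3), beside 6.51% of all genes, and between cMoPs and CMPs for 3 (Car1, Car2 and Car3), beside 13.2%.

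**Figure D1:**
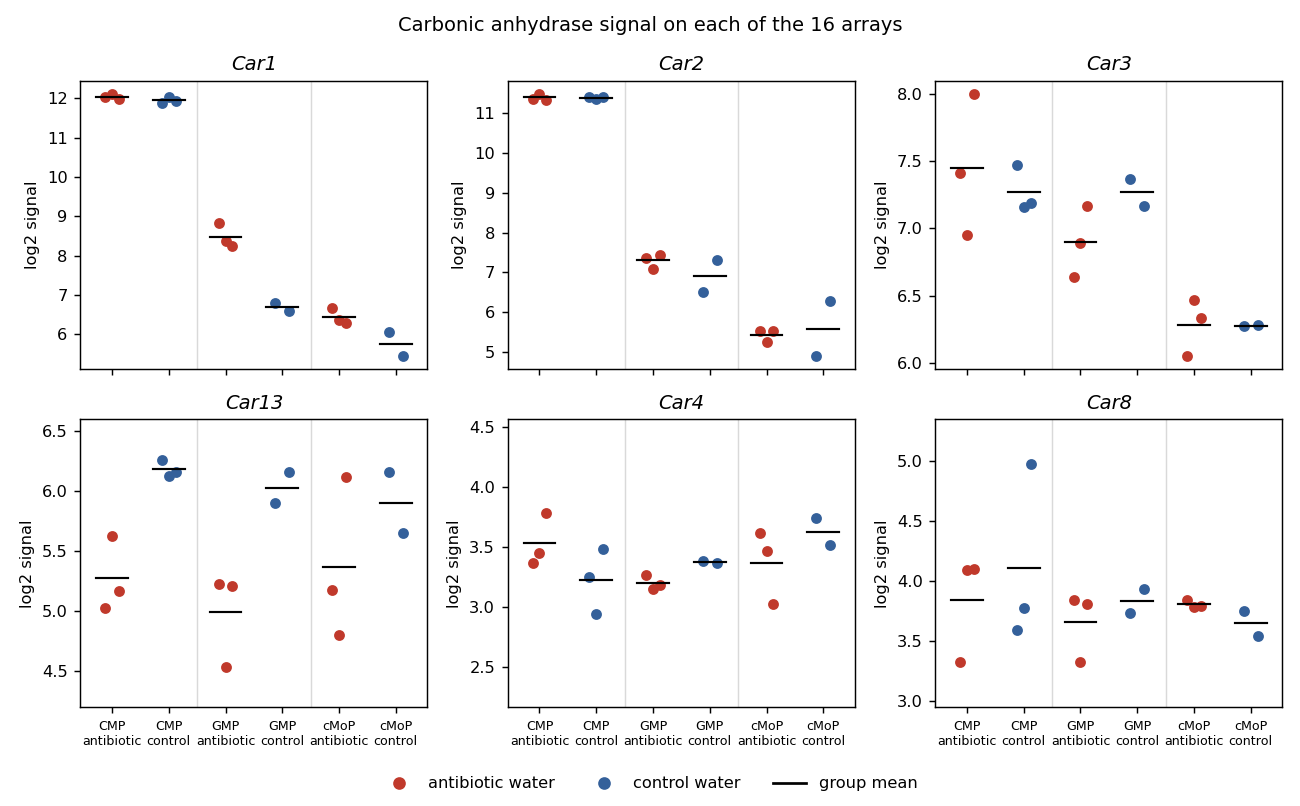
Log2 signal (vertical axes, each with its own scale) of the 6 carbonic anhydrases on each of the 16 arrays, by progenitor and water; points are arrays and bars group means. Car1 and Car2 lie above 11 in CMPs and between 4.90 and 8.82 in GMPs and cMoPs, and the antibiotic points of Car13 lie below the control points in CMPs and GMPs.

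Car3 encodes a cytosolic enzyme of low activity that is abundant in muscle and fat. In CMPs the brighter of its probe sets (17404191) read 7.41, 6.95 and 8 on the antibiotic arrays and 7.47, 7.16 and 7.19 on the control arrays. In GMPs it read 6.64, 6.89 and 7.17 after antibiotics and 7.37 and 7.17 in controls. In cMoPs it read 6.05, 6.47 and 6.33 after antibiotics and 6.27 and 6.28 in controls. The cMoP arrays all lay below the arrays of the other progenitors, and the waters overlapped in CMPs and cMoPs and met at 7.17 in GMPs. Car3 averaged 6.28 in cMoPs, against 7.09 in GMPs (-0.81 ± 0.171, limma adjusted p = 0.00887) and 7.36 in CMPs (-1.08 ± 0.162, limma adjusted p = 0.000121). Between GMPs and CMPs it differed by -0.28 ± 0.162 and was not called (limma adjusted p = 0.309).

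The dimmer probe set of Car3 (17396152) gave smaller differences in the same direction. It averaged 5.03 in cMoPs, against 5.20 in GMPs (-0.18 ± 0.119, limma adjusted p over every probe set 0.647) and 5.40 in CMPs (-0.38 ± 0.113, limma adjusted p over every probe set 0.0495). With the mean of both probe sets the difference between cMoPs and GMPs was -0.49 ± 0.139 and was no longer called (limma adjusted p = 0.0533). The identifiers of the 2 probe sets lie in different runs, 1 near those of Car13 and Car2 and 1 near that of Car1, and the strand each reads was not tested.

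Car13, which encodes a cytosolic enzyme found in many tissues, was not called between any progenitors. Its 6 group means ran from 4.99 to 6.18, and averaged over waters the progenitors differed by -0.22 ± 0.211 (GMPs minus CMPs), 0.12 ± 0.222 (cMoPs minus GMPs) and -0.09 ± 0.211 (cMoPs minus CMPs). The limma adjusted p was at least 0.575, and the 95% interval of the first difference ran from -0.67 to 0.23.

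Car4 had signals not far above the lower quartiles of the arrays, 2.89 to 2.99. Car8, with a mean of 3.82 over the 16 arrays, lay nearer to the array medians, 4.04 to 4.17. The table has no detection calls, and no group mean of either gene lay below these quartiles. Car4 (17254508) lay between 2.94 and 3.78 on all 16 arrays, and its group means between 3.20 and 3.63. Its waters stood apart in GMPs alone, with 3.26, 3.15 and 3.18 after antibiotics and 3.38 and 3.36 in controls. Car8 (17423121) lay between 3.32 and 4.97, with the highest value on 1 control array of CMPs whose group partners read 3.59 and 3.77. Neither was called in any comparison of progenitors (limma adjusted p at least 0.505), and the 95% intervals of their differences between progenitors stayed within -0.71 and 0.50.

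Counted over the 6 genes, 3 were lower in cMoPs than in GMPs (Car1, Car2 and Car3), where 5.42% of all genes were called and 2.82% were called lower. The same 3 were lower in cMoPs than in CMPs, where 18.9% of all genes were called and 9.2% called lower. No member was called higher in a later progenitor. The median difference of the 6 was -0.25 for GMPs minus CMPs, -0.41 for cMoPs minus GMPs and -0.67 for cMoPs minus CMPs, beside 0.03, 0.01 and 0.04 over all genes.

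**Figure D2:**
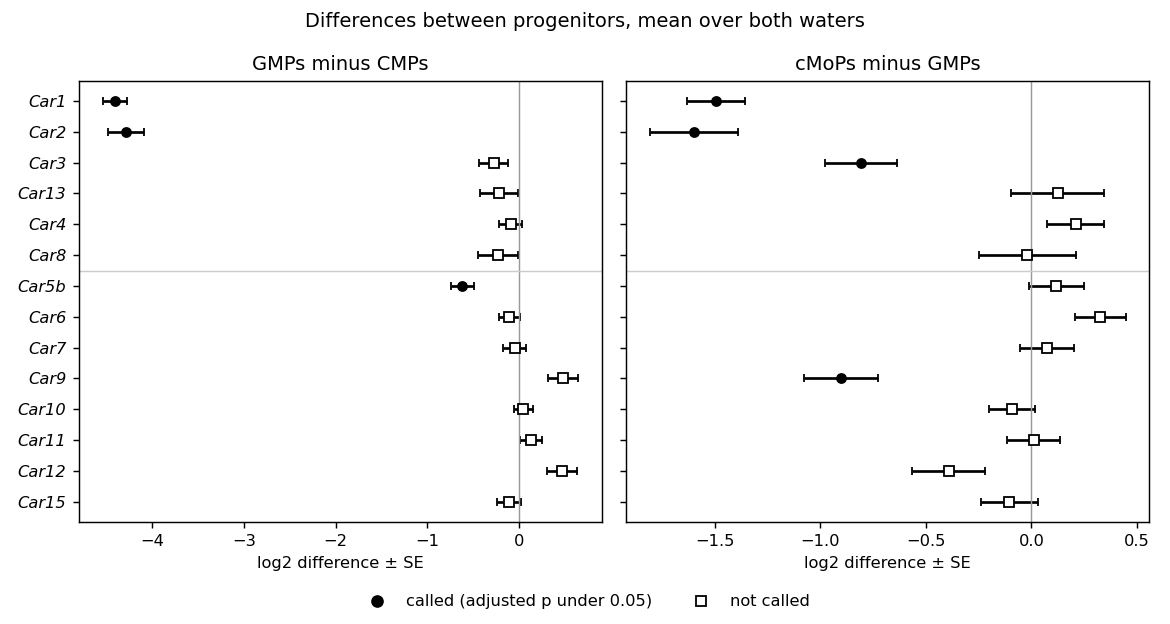
Log2 differences between progenitors (horizontal axes, mean over both waters, bars ± SE) of the 6 carbonic anhydrases above the line and of the 8 other measured family members below it; filled circles passed a limma adjusted p under 0.05. Car1 and Car2 lie at -4.41 and -4.28 on the left, and Car1, Car2, Car3 and Car9 are filled on the right.

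The difference between waters was the question of the study, and within each progenitor it is given as antibiotic minus control. Car1 differed little in CMPs, where the antibiotic arrays averaged 12.04 ± 0.065 and the control arrays 11.95 ± 0.081 (SD, n = 3 each), a difference of 0.09 ± 0.175 (SE). In GMPs the antibiotic arrays averaged 8.48 ± 0.299 (n = 3) and the control arrays 6.70 ± 0.156 (n = 2), which is 3.44-fold higher (1.78 ± 0.195, 95% interval 1.37 to 2.20). In cMoPs the averages were 6.45 ± 0.206 (n = 3) after antibiotics and 5.75 ± 0.424 (n = 2) in controls, 1.62-fold higher (0.70 ± 0.195, 95% interval 0.28 to 1.11). The difference in GMPs ranked 4 from the highest of 22180 genes. It is part of the mean water difference that chose Car1, so nothing is read from this rank.

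The lowest antibiotic GMP array of Car1, at 8.25, stood above the highest control GMP array, at 6.81, and the antibiotic cMoP arrays overlapped the control GMP arrays. The cMoP value rested on a wide control pair: without the first control array it was 1.00, and without the second 0.40. The water difference was 1.69 ± 0.262 larger in GMPs than in CMPs and 0.61 ± 0.262 larger in cMoPs than in CMPs, and the difference in cMoPs minus that in GMPs was -1.09 ± 0.276. These follow from the values that chose Car1 and are given with no test. By limma's F test over the 3 progenitors, 0 of the 6 members were called for a water difference that differed between progenitors, at a rate under 0.2 that 0.00451% of all genes passed, and 1 of the 6 had an unadjusted p under 0.05.

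Car13 had lower values after antibiotics on every array of CMPs and GMPs. In CMPs its probe set (17396143) read 5.03, 5.63 and 5.17 on the antibiotic arrays and 6.26, 6.13 and 6.16 on the control arrays. In GMPs it read 5.23, 4.54 and 5.21 after antibiotics and 5.90 and 6.16 in controls. In cMoPs it read 5.18, 4.8 and 6.12 after antibiotics and 6.16 and 5.65 in controls. The waters did not overlap in CMPs or GMPs, and overlapped in cMoPs through 1 antibiotic array at 6.12. From low to high the group means were 4.99 in antibiotic GMPs, 5.28 in antibiotic CMPs, 5.37 in antibiotic cMoPs, 5.91 in control cMoPs, 6.03 in control GMPs and 6.18 in control CMPs, with all antibiotic groups below all control groups.

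The differences of Car13 were -0.91 ± 0.281 in CMPs (95% interval -1.50 to -0.31), -1.04 ± 0.314 in GMPs (-1.71 to -0.37) and -0.54 ± 0.314 in cMoPs (-1.21 to 0.13). As folds these are 1.87-fold, 2.05-fold and 1.45-fold lower after antibiotics. In cMoPs the size depended on single arrays, and the difference was -0.92 without the third antibiotic array and -0.26 without the second. Car13 thus differed in the opposite direction to Car1, and its 2 highest group means were those of control CMPs and control GMPs.

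**Figure D3:**
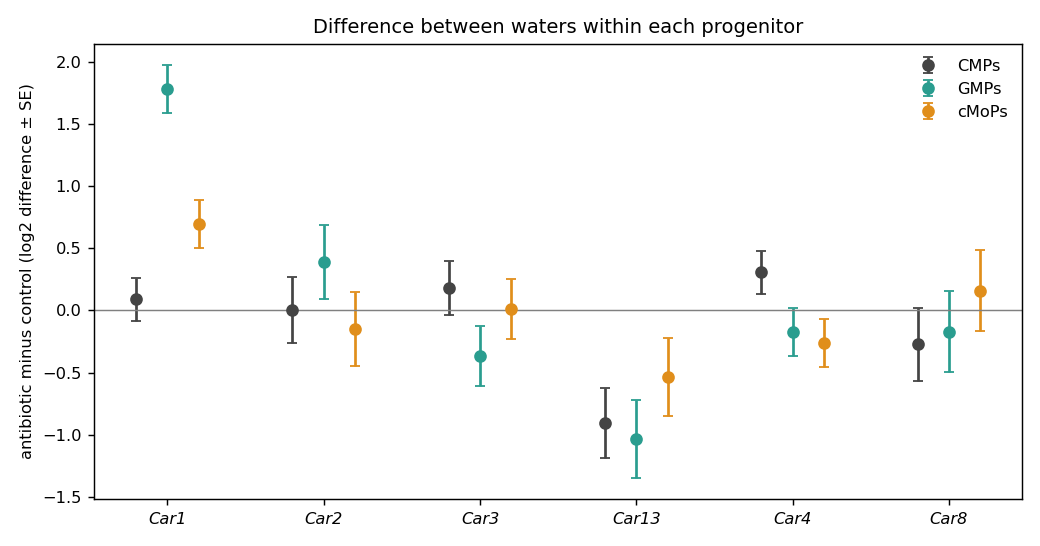
Antibiotic minus control log2 difference (vertical axis, ± SE) of each carbonic anhydrase in CMPs, GMPs and cMoPs. Car1 lies at 1.78 in GMPs and 0.09 in CMPs, Car13 lies below 0 in all 3 progenitors, and Car2, Car3, Car4 and Car8 lie between -0.37 and 0.39.

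Car2, Car3, Car4 and Car8 were not called for water by limma in any progenitor or on average, and none of them had an unadjusted p under 0.05 there. Over the 3 progenitors Car2 differed by 0.08 ± 0.165 (95% interval -0.27 to 0.43, limma adjusted p = 0.916) and no difference was detected. Its value in GMPs, 0.39 ± 0.297 (limma adjusted p = 0.824), was -0.02 without the first control array and 0.79 without the second, and in cMoPs -0.15 ± 0.297 became -0.83 without the first and 0.54 without the second. Car3 differed by -0.06 ± 0.135 on average (-0.35 to 0.23, limma adjusted p = 0.926). In GMPs its difference was -0.37 ± 0.242 (limma adjusted p = 0.779). Car4 differed by -0.04 ± 0.107 (-0.27 to 0.19) and Car8 by -0.10 ± 0.182 (-0.48 to 0.29) on average, with limma adjusted p of 0.934 and 0.908. The value of Car8 in CMPs, -0.27, was 0.16 without the control array at 4.97.

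At the rate under 0.2 that the study's design states, limma called 0 of the 6 members for water in CMPs, where 0.0406% of all genes were called and 1 member had an unadjusted p under 0.05. It called 1 member in GMPs, Car1 higher, where 0.0721% were called and 0.0496% called higher, and 0 in cMoPs, where 0.131% were called and 1 member had an unadjusted p under 0.05. On the mean of the 3 progenitors it called 2 members, Car1 higher and Car13 lower, where 0.514% were called, 0.271% higher and 0.243% lower. With each array centred on its median the split over all genes was 33 higher and 54 lower, against 60 higher and 54 lower as deposited. Since the family was chosen with the mean differences of Car1 and Car13 known, nothing is read from these shares. By array overlap, the waters stood apart for 1 member in CMPs (Car13), 3 in GMPs (Car1 higher, Car4 and Car13 lower) and 2 in cMoPs (Car1 and Car8 higher), beside 11.6%, 23% and 21% of all genes.

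**Figure D4:**
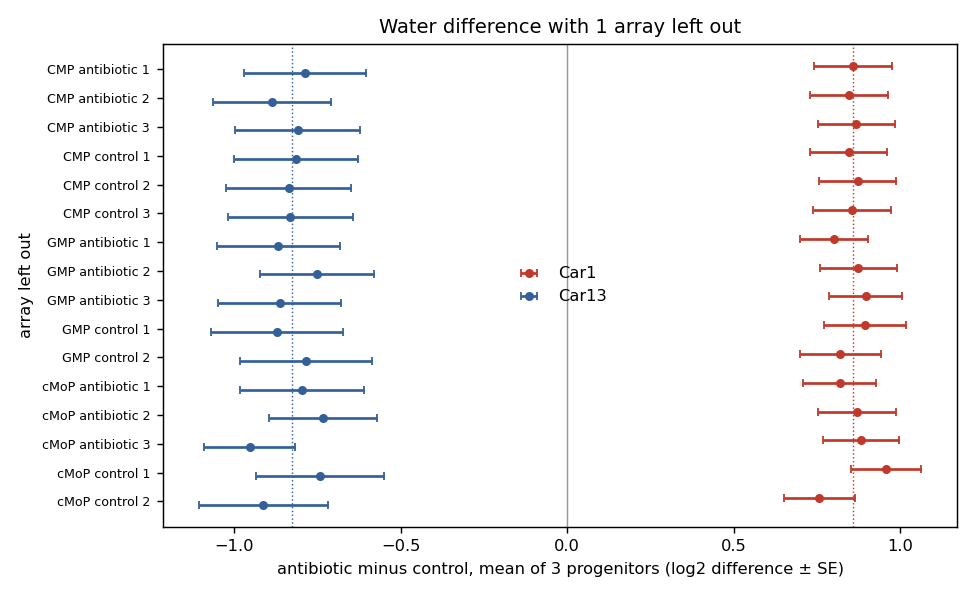
Mean antibiotic minus control log2 difference over the 3 progenitors (horizontal axis, ± SE) of Car1 and Car13 with each array left out in turn (rows); dotted lines mark the values with all 16 arrays. Car1 stays between 0.76 and 0.96 and Car13 between -0.95 and -0.73.

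Of the other 10 carbonic anhydrase genes listed, 8 were measured, and Car5a and Car14 shared a probe set with another symbol. None of the 8 was called for water by limma, on average or within a progenitor. In these comparisons only Car9, which encodes a transmembrane enzyme known to be induced by low oxygen, had an unadjusted p under 0.05, in GMPs, where it averaged 7.96 ± 0.31 (n = 3) after antibiotics and 7.43 ± 0.198 (n = 2) in controls (0.53 ± 0.248, limma adjusted p = 0.665). Along the progenitors Car5b, a mitochondrial enzyme, was lower in GMPs than in CMPs (-0.62 ± 0.124, limma adjusted p = 0.00205) and lower in cMoPs than in CMPs (-0.50 ± 0.124, limma adjusted p = 0.00853). Car9 was lower in cMoPs than in GMPs (-0.90 ± 0.175, limma adjusted p = 0.00457). Car12, another transmembrane enzyme, differed by 0.46 ± 0.164 between GMPs and CMPs and was not called (limma adjusted p = 0.0706), nor was the secreted Car6 between cMoPs and GMPs (0.33 ± 0.119, limma adjusted p = 0.156).

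The value of Car9 carries a doubt about its probe set. Of the 20 genes with the nearest probe set identifiers to the brighter set (17424651), 20 lie on the minus strand, while RefSeq places Car9 on the plus strand. For the dimmer set (17413352) 16 of 20 lie on the plus strand, and it differed by -0.55 between cMoPs and GMPs without being called (limma adjusted p over every probe set 0.144). Between GMPs and CMPs the dimmer set differed by 0.59 ± 0.161 and was called (limma adjusted p over every probe set 0.0366), while the brighter set differed by 0.48 ± 0.176 and was not (limma adjusted p over every probe set 0.126).

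Genes that move bicarbonate, protons, carbon dioxide or water were listed as partners of these enzymes, and 18 of 21 were measured. For water, limma called 1 of the 18 on the mean of the progenitors and 0 within any progenitor, with 5, 1 and 3 at an unadjusted p under 0.05 in CMPs, GMPs and cMoPs, beside 0.514% of all genes called on the mean. It was Slc4a8, a sodium-driven chloride and bicarbonate exchanger, which rose after antibiotics by 0.54 ± 0.116 (limma adjusted p = 0.134). Slc4a8 averaged 5.32 after antibiotics and 4.58 in controls in GMPs, 5.64 and 4.81 in cMoPs, and 4.50 and 4.46 in CMPs. The antibiotic and control arrays did not overlap in GMPs or cMoPs.

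Along the progenitors the list split. In GMPs against CMPs, where 16% of all genes were called, 5 of 18 were higher, among them the proton channel gene Hvcn1 (1.73 ± 0.115, limma adjusted p = 1.95e-08) and the proton pump subunit gene Tcirg1 (1.19 ± 0.104, limma adjusted p = 4.73e-07), with Slc4a8, Atp6v1a and Slc16a3. The 2 that were lower were Rhag, the ammonium and gas channel of the red cell membrane (-4.83 ± 0.136), and Aqp1, its water channel (-4.54 ± 0.155), beside -4.41 for Car1 and -4.28 for Car2. Rhag also stands among the erythroid markers. So does Slc4a1, another of the transport genes, which differed by -0.22 ± 0.159 and was not called (limma adjusted p = 0.429). In cMoPs against GMPs 1 of 18 was called, beside 5.42% of all genes, and it was Slc16a1, a lactate and proton cotransporter (-0.52 ± 0.124, limma adjusted p = 0.0181). In cMoPs against CMPs 5 were higher and 3 lower, beside 18.9% of all genes called.

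Markers of other cells were set beside these values, since in sorted bulk RNA fewer cells of a type and less RNA per cell cannot be told apart. Of the 20 erythroid markers 14 were measured, and 13 of these were lower in GMPs than in CMPs, where 8.17% of all genes were called lower, with a median difference of -2.91 beside 0.03 over all genes. In cMoPs against GMPs 2 of 14 were lower, beside 2.82% of all genes. None of the 14 was called for water in GMPs by limma, 3 had an unadjusted p under 0.05 (Hemgn, Tfrc and Kel), 8 were positive and 6 negative, and the median difference was 0.03. The mean of the 14 lay between 4.81 and 5.03 on antibiotic GMP arrays and between 4.85 and 4.95 on control GMP arrays, and the waters overlapped. In cMoPs it lay between 4.61 and 4.66 after antibiotics and between 4.71 and 4.77 in controls, and in CMPs between 7.77 and 7.93 after antibiotics and between 7.53 and 7.75 in controls. The waters did not overlap in cMoPs, where the mean was lower after antibiotics, nor in CMPs, where it was higher. The part of erythroid cells in the Car1 values was not tested. No erythroid marker had a group mean below the lower quartiles of the arrays.

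**Figure D5:**
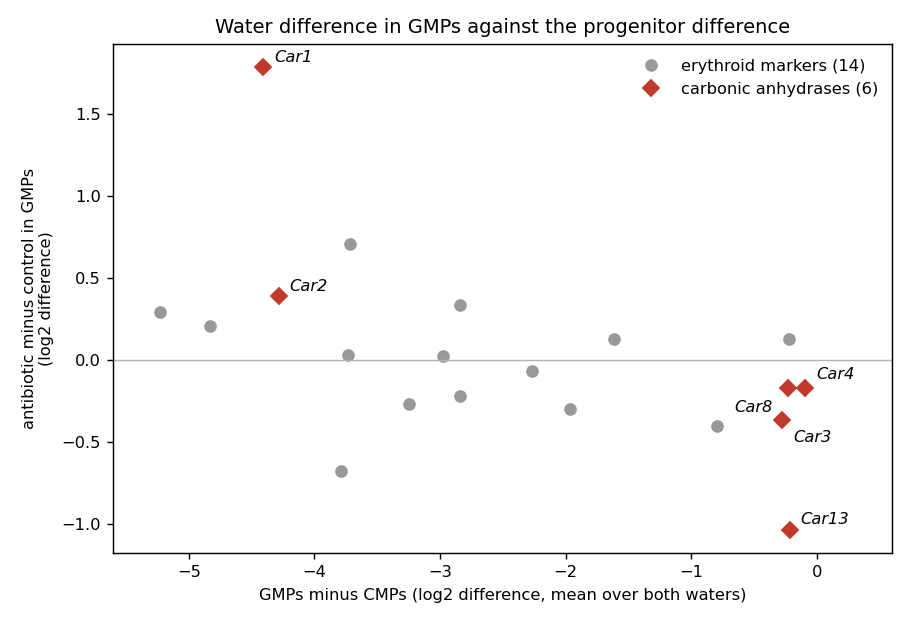
Antibiotic minus control log2 difference in GMPs (vertical axis) against the log2 difference of GMPs minus CMPs (horizontal axis) for the 6 carbonic anhydrases (diamonds) and 14 erythroid markers (circles). Car1 lies at 1.78 on the vertical axis, while the markers lie between -0.68 and 0.71.

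The other marker lists moved as follows. The mean of 7 megakaryocyte markers lay between 5.52 and 5.61 on antibiotic GMP arrays and between 5.22 and 5.42 on control GMP arrays. The waters did not overlap there, as for Car1. Taken singly, 2 of the 7 markers did not overlap in GMPs, beside 23% of all genes. The means of the 2 waters overlapped in CMPs, as for Car1, and in cMoPs, where the arrays of Car1 stood apart. The part of these cells in the Car1 value was not tested. The mean of 10 eosinophil, basophil and mast cell markers lay between 6.63 and 6.84 after antibiotics and between 6.51 and 6.71 in controls in GMPs. The arrays of 8 of the 10 did not overlap there, beside 23% of all genes, and these 8 were split in direction. Prg2, Cpa3, Mcpt8, Tpsb2 and Il5ra were higher after antibiotics, and Ms4a2, Fcer1a and Cma1 were lower. Fcer1a averaged 2.14 after antibiotics and 2.59 in controls there, and Cma1 2.68 and 3.38, beside array lower quartiles of 2.89 to 2.99. Of the higher ones, Tpsb2 (3.61 and 3.27) and Il5ra (3.72 and 3.24) also lay not far above these quartiles. Among the 10 markers Cpa3, a mast cell protease, was higher after antibiotics on the mean of the progenitors (0.81 ± 0.119, limma adjusted p = 0.0143). Its arrays stood apart in all 3, and the part of these cells in the Car1 values was not tested. The mean of 9 neutrophil granule genes lay between 10.91 and 10.93 after antibiotics and between 10.91 and 10.94 in controls in GMPs. The mean of 8 monocyte markers lay between 7 and 7.57 after antibiotics and between 7.69 and 7.85 in controls in CMPs. There 1 of the 8 was called lower, beside 0.0406% of all genes called in either direction. In GMPs the mean of these markers lay between 8.05 and 8.42 after antibiotics and between 8.40 and 8.65 in controls. On the mean of the progenitors 3 of the 8 were called lower after antibiotics, beside 0.243% of all genes called lower. They were Ccr2 (-0.47, limma adjusted p = 0.18), F13a1 (-0.43, limma adjusted p = 0.183) and Cx3cr1 (-0.49, limma adjusted p = 0.188). By array overlap, the waters stood apart for 4 of the 8 in CMPs and 2 of the 8 in GMPs, beside 11.6% and 23% of all genes. The arrays of Ccr2 and Cx3cr1 stood apart in CMPs and GMPs, as did those of Car13. In cMoPs the marker mean was higher after antibiotics, between 9.91 and 10.09, beside 9.89 on each control array. There 4 of the 8 markers were positive and 4 negative, with a median difference of 0.02, where Car13 differed by -0.54. The part of monocyte cells in the Car13 value was not tested.

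The genes most like each member were found by the root mean square distance between profiles over the 16 arrays, each centred on its own mean. Nearest to Car1 were Gfi1b (0.48), Ces2g (0.61) and Car2 (0.61), and nearest to Car2 were Mt2 (0.47), Ces2g (0.53) and Gfi1b (0.55). Car1 was the fifth nearest to Car2, and no other member ranked closer than 661 from either. In GMPs the water difference of Gfi1b was 0.51 and that of Ces2g 0.28, beside 1.78 for Car1. Nearest to Car3 were Josd1 (0.23), Cd81 (0.24) and Arhgap10 (0.24). Nearest to Car13 were Zbp1 (0.34), Mtap (0.35) and Oas3 (0.35), whose mean water differences were -0.77, -0.32 and -0.75, beside -0.83 for Car13. These distances are descriptions over arrays that share their groups.

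In RefSeq's gene table of the mouse assembly GRCm38.p6, Car13, Car1, Car3 and Car2 follow each other on chromosome 3, with Rbis before them and Gm9733 after them. No coordinates are given, since the sources used here name no genome build for the arrays. Along this row the mean water differences were -0.12 for Rbis, -0.83 for Car13, 0.86 for Car1, -0.06 for Car3, 0.08 for Car2 and 0.65 for Gm9733, so neighbours differed in direction. The differences of GMPs minus CMPs were -0.14, -0.22, -4.41, -0.28, -4.28 and 2.22 in the same order, and the 2 genes that fell most, Car1 and Car2, have Car3 between them.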

How the data were processed

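Each array's deposited values are log2 signals, 1 for each probe set, which were used as deposited. The submitters' processing notes name Transcriptome Analysis Console and Partek, with no versions. How probes were summarised and arrays normalized is not given in the sources used here. Of 41345 probe sets, 23521 carried 1 symbol (1814 several, 16010 none), which gave 22180 genes with the brightest probe set for each. No dim genes were removed. RNA input was 2.6 ng, amplified with a NuGen kit per the labels' protocols.

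A mean for each of the 6 groups was fitted with limma 3.58.1 in R 4.3.3 (lmFit, eBayes, 10 residual and 5.28 prior degrees of freedom). Adjusted p-values are Benjamini-Hochberg over all genes, every test is two-sided, and a difference is given with its standard error. Calls used a rate under 0.2 for water and for the interaction of water and progenitor, and 0.05 between progenitors. The fit was tested on simulated data.

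The members and lists were chosen with earlier results of these data known. Named genes are the 6 members, other family members called in any comparison, transport genes called for water (otherwise the lowest p per comparison), and the 3 genes nearest in profile to each member whose group means span at least 1 log2 unit. The transport genes named between progenitors, Gm9733, Rbis, Cpa3 and the monocyte markers were chosen after their values were seen. Alternatives were the probe set per gene, every probe set, a filter on dim genes, quantile normalization, median centring, the variance model, the methods' analysis of variance, a replicate block, only the arrays of 1 progenitor and each array left out.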

Additional observations from a re-analysis of the deposited data

How the results depend on the processing

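The direction of every called difference of the 6 carbonic anhydrases held under all alternatives run. Only differences that were not called changed sign. Counted over called and uncalled differences together, these were 21 of 672 values with 1 array left out and 5 of 382 under the other settings. Under those settings the values were Car2 for water in CMPs (-0.043 with arrays centred on their median), Car3 for water in cMoPs (-0.035 with the mean of its probe sets, -0.045 with quantile normalization, -0.089 with the replicate block as a fixed term) and Car13 in cMoPs minus CMPs (0.0027 with quantile normalization). With 1 array left out, the water difference of Car2 ran from -0.035 to 0.035 in CMPs, -0.017 to 0.79 in GMPs, -0.83 to 0.54 in cMoPs and -0.15 to 0.31 on the mean. That of Car3 ran from -0.093 to 0.43 in CMPs, -0.085 to 0.13 in cMoPs and -0.15 to 0.023 on the mean. The mean of Car4 ran from -0.09 to 0.014, and Car8 ran from -0.53 to 0.16 in CMPs and -0.18 to 0.047 on the mean. In cMoPs minus GMPs, Car8 ran from -0.10 to 0.033 and Car13 from -0.064 to 0.27, and in cMoPs minus CMPs Car13 ran from -0.28 to 0.048. With only the GMP arrays in the fit, limma called 0 members in GMPs and 2 had an unadjusted p under 0.05. That fit called 0 of all 22180 genes, so the missing calls say nothing particular to the members. On the mean of the progenitors, 1 member was called in place of 2 with every probe set tested and with the methods' analysis of variance. The former called 34 of all 41345 probe sets higher and 25 lower, and the latter 41 of all 22180 genes higher and 59 lower. Leaving out 1 array gave 1 to 2: Car13 lost its call in 6 of 16 fits (without the first antibiotic or first control array of CMPs or of cMoPs, the second antibiotic or second control array of GMPs). These 6 fits called 23 to 31 of all 22180 genes higher and 16 to 28 lower, against 60 and 54 in the main fit. The lost call is therefore not particular to Car13. The interaction of water and progenitor was called for 1 member in place of 0 with only genes above the median gene, with trend and robust variances and with the replicate block as a fixed term. It was called for 0 to 1 with 1 array left out (1 without the first antibiotic, the first control or the second control array of cMoPs). The share of all genes called for the interaction was 0.00451% in the main fit, and the shares under these settings are not given here. The cause of these changes in calls was not tested. Whether arrays of the same replicate number share animals is not in the labels. The signals of arrays of different groups correlated at 0.961 to 0.991. Taken as deviations from their group means, same-numbered arrays of 1 water correlated at -0.049 to 0.104 over 15 pairs, with 1 pair above 0.1. Such values between different sorted cells cannot show whether the samples were paired. The replicate block changed no other count. With 2 control arrays in GMPs and cMoPs, the spread there rests mainly on the other groups.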
